A study of Homo sapiens with 4 samples.

Results

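The respiratory chain of A549 cells, a human lung adenocarcinoma line, is described here through the genes of its subunits on 2 genomes. The genes were taken by symbol: NDUFA, NDUFB, NDUFS and NDUFV genes of complex I, SDHA to SDHD of complex II, named UQCR genes of complex III, COX4 to COX8 genes of complex IV with a letter after the number, and the 13 protein-coding genes of the mitochondrial genome. This gave 78 of the 57820 gene IDs in the deposited table, 65 nuclear-encoded (61 symbols) and 13 mitochondrially encoded. NDUFA7, NDUFB8, UQCR11 and SDHD each have a second ID. Subunits whose symbols fall outside the pattern, such as COX4I1, CYC1 and NDUFAB1, were kept as a separate list. NDUFA4 is placed with complex IV, where its protein belongs despite its name.

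The libraries are total RNA from A549 cells transfected with CEBPB siRNA-1 (1 library), with CEBPB siRNA-2 (1 library) or with control siRNA (2 libraries). CEBPB is a transcription factor of the C/EBP family, and the series counts A549, in all groups alike, among lines with activated NRF2, a stress-response transcription factor. All cells received fresh medium 24 h after transfection and were collected 24 h later. Nothing in the labels tells if the controls were cultured apart, and p-values therefore reflect no more than the sample-to-sample spread here, possibly a technical one.

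The respiratory chain passes electrons from NADH and succinate to oxygen and pumps protons across the inner mitochondrial membrane, and the ATP synthase uses the resulting gradient to make ATP. Most subunits are encoded in the nucleus and imported. A small set, which forms the catalytic or proton-pumping centre of complexes I, III, IV and V, is transcribed inside mitochondria as long precursors from both strands of a circular genome and cut into separate RNAs. Nuclear genes of the chain are known targets of NRF1 (nuclear respiratory factor 1, a different protein from NRF2), of the ETS factor GABP and of YY1.

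RefSeq promoters (GRCh38.p14, 250 bases before to 50 bases after the start of each gene) were found for 48 of the 56 nuclear-encoded genes that passed the expression filter. They were searched on both strands for exact short motifs. GCGCATGCG, read for NRF1, occurred in 7 of the 48 member genes (14.6%), beside 2.34% of all 27305 genes with a promoter. CCGGAAGT, read for GABP, occurred in 8 (16.7%), beside 4.95% of all. AAGATGGCG, read for YY1, occurred in 8 (16.7%), beside 2.14% of all. The C/EBP palindrome TTGCGCAA occurred in 0 of 48, beside 0.172% of all genes, which says only that these letters are not in these windows. Stretches of 60 bases are shown for 4 complex I genes whose values are described below and that hold the NRF1 motif upstream of the start. All 4 are written 5′ to 3′ on the strand of the gene, with the motif in capitals: NDUFS7 at chr19:1383808-1383867 (plus strand), NDUFB4 at chr3:120596152-120596211 (plus strand), NDUFS6 at chr5:1801336-1801395 (plus strand) and NDUFA5 at chr7:123557942-123558001 (minus strand).
NDUFS7: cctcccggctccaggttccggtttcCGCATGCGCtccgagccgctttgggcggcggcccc
NDUFB4: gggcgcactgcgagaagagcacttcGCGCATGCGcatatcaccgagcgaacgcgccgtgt
NDUFS6: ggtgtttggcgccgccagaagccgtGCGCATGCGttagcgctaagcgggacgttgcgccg
NDUFA5: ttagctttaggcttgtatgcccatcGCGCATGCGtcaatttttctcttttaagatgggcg
In NDUFS7 the motif lies on the opposite strand. In NDUFB4 the matches on the 2 strands overlap, and the one on the gene's strand is capitalised. A match describes letters, not binding.

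The deposited values were read as FPKM, a level scaled for transcript length and sequencing depth. They summed to 494066 FPKM with siRNA-1, 502651 with siRNA-2, 513055 in control 1 and 528606 in control 2. Relative depth, read from the steps of low values, was 0.969 to 1.02. Only ratios close to that of control 1 were kept for this reading, so it could not show large differences in depth. CEBPB stood at 12.9 FPKM with siRNA-1 and 10.97 FPKM with siRNA-2, against 78.7 and 80.9 FPKM in the controls, a log2 change of -2.65 ± 0.17 (SE; limma, adjusted p = 0.0167). Leaving out control 1 raised the adjusted p to 0.32, and leaving out control 2 raised it to 0.336, so that CEBPB no longer passed. KRT8 and KRT18, keratins of simple epithelia, were abundant in all libraries, while NKX2-1 and SFTPB, markers of lung epithelium, were listed at 0. KRT18 was at 568 and 1351 FPKM with siRNA-1 and siRNA-2, against 1740 and 2502 FPKM in the controls, and the authors' deposited table gives it a log2 change of -1.21 (adjusted p = 0.0317). Of 6 tested epithelial markers 4 had a negative change, beside 49.9% of all genes. In limma's test 0 of them passed, beside 0.171% of all genes called lower and 0.064% called higher. The authors' deposited table has ABCA3, a lipid transporter of alveolar cells, at a log2 fold change of 0.79 (adjusted p = 0.0473). Markers of leukocytes, endothelium and blood were at or near 0, except CD68, at 4.69 to 16.8 FPKM. Its mean count in the authors' deposited table is 0.754, few for that level, so the FPKM of CD68 is uncertain. COL1A1, a collagen of fibroblasts, was at 4.22 and 2.24 FPKM with siRNA-1 and siRNA-2, against 0.717 and 0.573 FPKM in the controls, and the authors' deposited table gives it 1.88 (adjusted p = 0.00621). The other fibroblast markers were near 0, with PDGFRA at 0.0155 and 0.0319 FPKM with siRNA-1 and siRNA-2, against 0.0634 and 0.0919 FPKM in the controls, and DCN at 0.0957 FPKM with siRNA-1 and 0 elsewhere. The part of these markers in the results was not tested.

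Control 1 stood apart in holding RNA of skeletal muscle genes. The 6 muscle markers summed to 0.813 FPKM with siRNA-1, 0.698 FPKM with siRNA-2, 12.3 FPKM in control 1 and 0.792 FPKM in control 2, with ACTC1 and TNNT2 at 0 in all libraries. Of muscle genes looked up after these values were seen, ACTA1 was at 23.9 FPKM in control 1 and at most 0.0822 FPKM in any other library, and TNNI2 was at 14.5 FPKM in control 1 and listed at 0 elsewhere. Not all 13 genes looked up did this. TNNT1 was at 55.3 and 79.5 FPKM with siRNA-1 and siRNA-2, against 45.4 and 48.5 FPKM in the controls, NEB was at 0.0858 and 0.292 FPKM, against 1.29 and 1.31 FPKM in the controls, and TTN was at 0.0749 to 0.118 FPKM in all libraries. CKM, a muscle creatine kinase among the 6 markers, was at 6.65 FPKM in control 1 and listed at 0 elsewhere. Muscle uses the respiratory chain heavily. The part of this RNA in the results was not tested, and they are also given without control 1.

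Knockdown libraries held somewhat less RNA of the nuclear-encoded subunits than controls, with a larger deficit for siRNA-1 than for siRNA-2. No single member passed the test. Of the 65 nuclear-encoded IDs, 56 had a mean of at least 1 FPKM and were tested with limma on log2(FPKM + 1), all log2 changes below being on that scale. At an adjusted p below 0.05, 0 of 56 passed in either direction, beside 0.171% of all 14068 genes tested called lower and 0.064% called higher. At an unadjusted p below 0.05, 3 members were lower and 0 higher, beside 5.13% and 7.07% of all genes. The fitted change was negative for 52 of 56 members and positive for 4 (48 negative after scaling to equal FPKM sums), with a median of -0.26, a range of -0.70 to 0.28 and a median standard error of 0.19. The median over all genes tested was 0.001, and 49.9% of all genes had a negative change. Both knockdown libraries lay below both controls for 30 of 56 members (53.6%), beside 21.0% of all genes, and above both for 2 members (3.57%), beside 23.5% of all genes. Without the siRNA-1 library the median was -0.12, with 41 of 56 changes negative, and without the siRNA-2 library it was -0.42, with 49 negative. Without control 1 it was -0.30, with 48 negative. In bulk RNA, fewer cells holding these RNAs and less of these RNAs in each cell cannot be told apart.

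The authors' own comparison rests on counts rather than FPKM. An adjusted p was given in the authors' deposited table for 56 nuclear-encoded members, 53 with a negative and 3 with a positive log2 fold change, and the median was -0.29. This set differs from the 56 tested with limma in holding COX6B2 and lacking NDUFA7. There 0 members were below an adjusted p of 0.05, beside 1.42% of all genes called lower and 2.71% called higher in the authors' deposited table. At an unadjusted p below 0.05, that deposited table of the authors holds 2 members that were lower (NDUFB4, p = 0.048, and NDUFB9, p = 0.0377) and 1 that was higher (COX6B2, p = 0.0111), beside 3.99% and 7.48% of all genes.

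**Figure D1:**
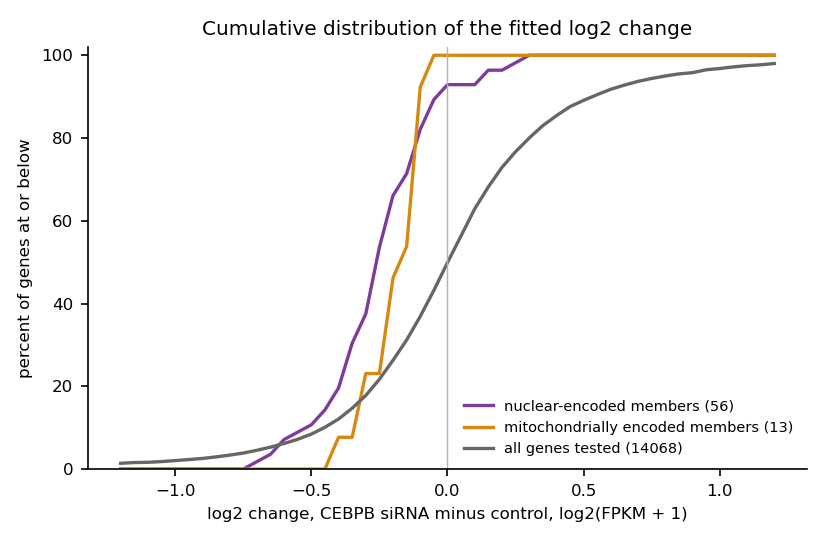
Cumulative percent of genes (vertical axis) at or below a fitted log2 change on the log2(FPKM + 1) scale (horizontal axis), CEBPB siRNA minus control siRNA, for the 56 nuclear-encoded members, the 13 mitochondrially encoded members and all 14068 genes tested. At a change of -0.2 the nuclear-encoded curve stands at 66.1%, the mitochondrial curve at 46.2% and all genes at 26.3%; at 0 they stand at 92.9%, 100% and 49.9%.

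Complex I takes electrons from NADH. Its 7 nuclear-encoded core subunits carry the flavin and the iron-sulphur clusters of the peripheral arm. All 7 had a negative change, with a median of -0.26, and their summed level was 337 FPKM with siRNA-1 and 504 FPKM with siRNA-2, against 492 and 493 FPKM in the controls. The siRNA-1 sum alone lay below the controls, and the siRNA-2 sum lay above both.

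NDUFS7, which carries the last iron-sulphur cluster before ubiquinone and whose promoter stretch is shown above, had the most negative change of the core. It was at 13.9 FPKM with siRNA-1 and 21.3 FPKM with siRNA-2, against 23.2 and 27.6 FPKM in the controls (log2 change -0.53 ± 0.25, limma adjusted p = 0.479). Both knockdown libraries were below both controls, siRNA-1 by more.

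NDUFV1, which binds NADH and the flavin, was at 86.6 FPKM with siRNA-1 and 127 FPKM with siRNA-2, against 118 and 109 FPKM in the controls (-0.11 ± 0.22, limma adjusted p = 0.895). The siRNA libraries lay on opposite sides of the controls. NDUFS8, an iron-sulphur subunit, had the same arrangement, with 95.2 FPKM with siRNA-1 and 150.5 FPKM with siRNA-2, against 139.7 and 146 FPKM in the controls. NDUFS1, the least abundant core subunit RNA, was at 8.88 and 7.81 FPKM in the siRNA-1 and siRNA-2 libraries, against 9.58 and 9.63 FPKM in the controls.

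Accessory subunits of complex I surround the core and are needed for assembly and stability. Of 27 tested, 25 had a negative change, the median was -0.24, and 10 (37.0%, beside 21.0% of all genes) lay below both controls in both knockdown libraries. NDUFB9 had the most negative change of all members. It was at 71.6 FPKM with siRNA-1 and 136 FPKM with siRNA-2, against 151 and 173 FPKM in the controls (-0.70 ± 0.31, limma adjusted p = 0.463). Both knockdown libraries were below both controls, and siRNA-1 was well under siRNA-2. With the siRNAs fitted as separate groups and the spread taken from the controls alone, its change was again -0.70, with a standard error of 0.12.

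NDUFB5 had the smallest p of the nuclear-encoded members, with 15.4 FPKM with siRNA-1 and 21.6 FPKM with siRNA-2, against 27.5 and 30.4 FPKM in the controls (-0.64 ± 0.21, limma adjusted p = 0.326). NDUFB4 was at 80.5 and 91.3 FPKM with siRNA-1 and siRNA-2, against 115 and 123 FPKM in the controls (-0.46 ± 0.16, limma adjusted p = 0.332). For both genes the knockdown libraries did not overlap the controls. NDUFS6, a zinc-binding accessory subunit, was at 53.2 FPKM with siRNA-1 and 75.7 FPKM with siRNA-2, against 74.5 and 81.8 FPKM in the controls, so that only siRNA-1 lay below both.

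At the other end of the accessory subunits, NDUFB7 was at 61.8 FPKM with siRNA-1 and 74.1 FPKM with siRNA-2, against 59.8 and 62.4 FPKM in the controls (0.14 ± 0.17, limma adjusted p = 0.781). Only siRNA-2 was above both controls. NDUFB3 was at 43.6 and 47.6 FPKM with siRNA-1 and siRNA-2, against 40.9 and 41.6 FPKM in the controls, above both in both knockdown libraries. For NDUFB3 the log2 fold change in the authors' deposited table was -0.03, the opposite sign.

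Complex II, succinate dehydrogenase, is the only complex with no mitochondrially encoded subunit, and its 4 genes had the median closest to 0 of the nuclear-encoded groups (-0.07). SDHB, the iron-sulphur subunit, was at 45.7 FPKM with siRNA-1 and 68.4 FPKM with siRNA-2, against 75.9 and 73.7 FPKM in the controls (-0.41 ± 0.23, limma adjusted p = 0.537). SDHA, the flavoprotein, was at 65.3 and 65.2 FPKM with siRNA-1 and siRNA-2, against 66.6 and 64.4 FPKM in the controls, between the controls in both knockdown libraries. SDHC, a membrane anchor, was at 28.5 FPKM with siRNA-1 and 39.2 FPKM with siRNA-2, against 27.7 and 28.8 FPKM in the controls (0.24 ± 0.20, limma adjusted p = 0.699), with siRNA-2 alone standing high. The authors' deposited table gives SDHC a log2 fold change of -0.09, the opposite sign.

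Complex III passes electrons from ubiquinol to cytochrome c. All 8 nuclear-encoded members had a negative change (median -0.24), and 6 of the 8, beside 21.0% of all genes, lay below both controls in both knockdown libraries. UQCRB, a small subunit, was at 93.8 FPKM with siRNA-1 and 82.0 FPKM with siRNA-2, against 113 and 169 FPKM in the controls (-0.65 ± 0.23, limma adjusted p = 0.351). The groups did not overlap, and the controls themselves were far apart. UQCRFS1, the Rieske iron-sulphur protein, was at 77.4 FPKM with siRNA-1 and 119 FPKM with siRNA-2, against 127 and 134 FPKM in the controls. Both knockdown libraries were below the controls, siRNA-2 by little. UQCRQ, another small subunit, was at 64.0 and 68.1 FPKM with siRNA-1 and siRNA-2, against 80.9 and 62.9 FPKM in the controls (-0.11 ± 0.18, limma adjusted p = 0.861). It lay between the controls in both knockdown libraries, and without control 1 its change was 0.07.

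Complex IV, cytochrome c oxidase, reduces oxygen, and its nuclear-encoded subunits wrap the mitochondrially encoded centre. It had the most negative median of the nuclear-encoded groups (-0.34). Of 10 tested members, 9 (90.0%, beside 21.0% of all genes) lay below both controls in both knockdown libraries. Their summed level was 1041 FPKM with siRNA-1 and 1177 FPKM with siRNA-2, against 1287 and 1431 FPKM in the controls.

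COX7C had the most negative change of the complex IV members, with 85.3 FPKM with siRNA-1 and 125 FPKM with siRNA-2, against 136 and 186 FPKM in the controls (-0.62 ± 0.25, limma adjusted p = 0.422). COX6B1, the most abundant nuclear-encoded member, was at 265 and 261 FPKM with siRNA-1 and siRNA-2, against 299 and 338 FPKM in the controls. NDUFA4 was at 29.3 and 34.6 FPKM with siRNA-1 and siRNA-2, against 38.8 and 41.9 FPKM in the controls (-0.33 ± 0.17, limma adjusted p = 0.524). For these genes both knockdown libraries were below both controls. COX6C was the exception, at 71.8 and 73.5 FPKM with siRNA-1 and siRNA-2, against 58.9 and 60.2 FPKM in the controls (0.28 ± 0.15, limma adjusted p = 0.527), above both controls with either siRNA. The authors' deposited table has COX6C at a log2 fold change of -0.10, so its direction was not shared by the count-based values.

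The tissue-restricted isoforms of complex IV were at or near 0. COX6A2, used in heart and skeletal muscle, was at 0.815 FPKM in control 1 and listed at 0 in the other 3 libraries. COX7B2 was at 0.502 FPKM in control 1 and at 0 elsewhere. Mean counts of COX6A2 and COX7B2 in the authors' deposited table are only 1.46 and 1.22. Control 1 is the library with muscle RNA, and the part of that RNA in these values was not tested. COX7A1, another muscle isoform, was at 0.944 FPKM with siRNA-1 and 0 with siRNA-2, against 0.736 and 0 FPKM in the controls. COX6B2, a testis isoform, was at 1.67 FPKM with siRNA-1 and 0.640 FPKM with siRNA-2, against 0 and 0.155 FPKM in the controls, too low for the filter. COX8C was listed at 0 in all 4 libraries. With the 4 second IDs these are the 9 nuclear-encoded IDs that were not tested.

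**Figure D2:**
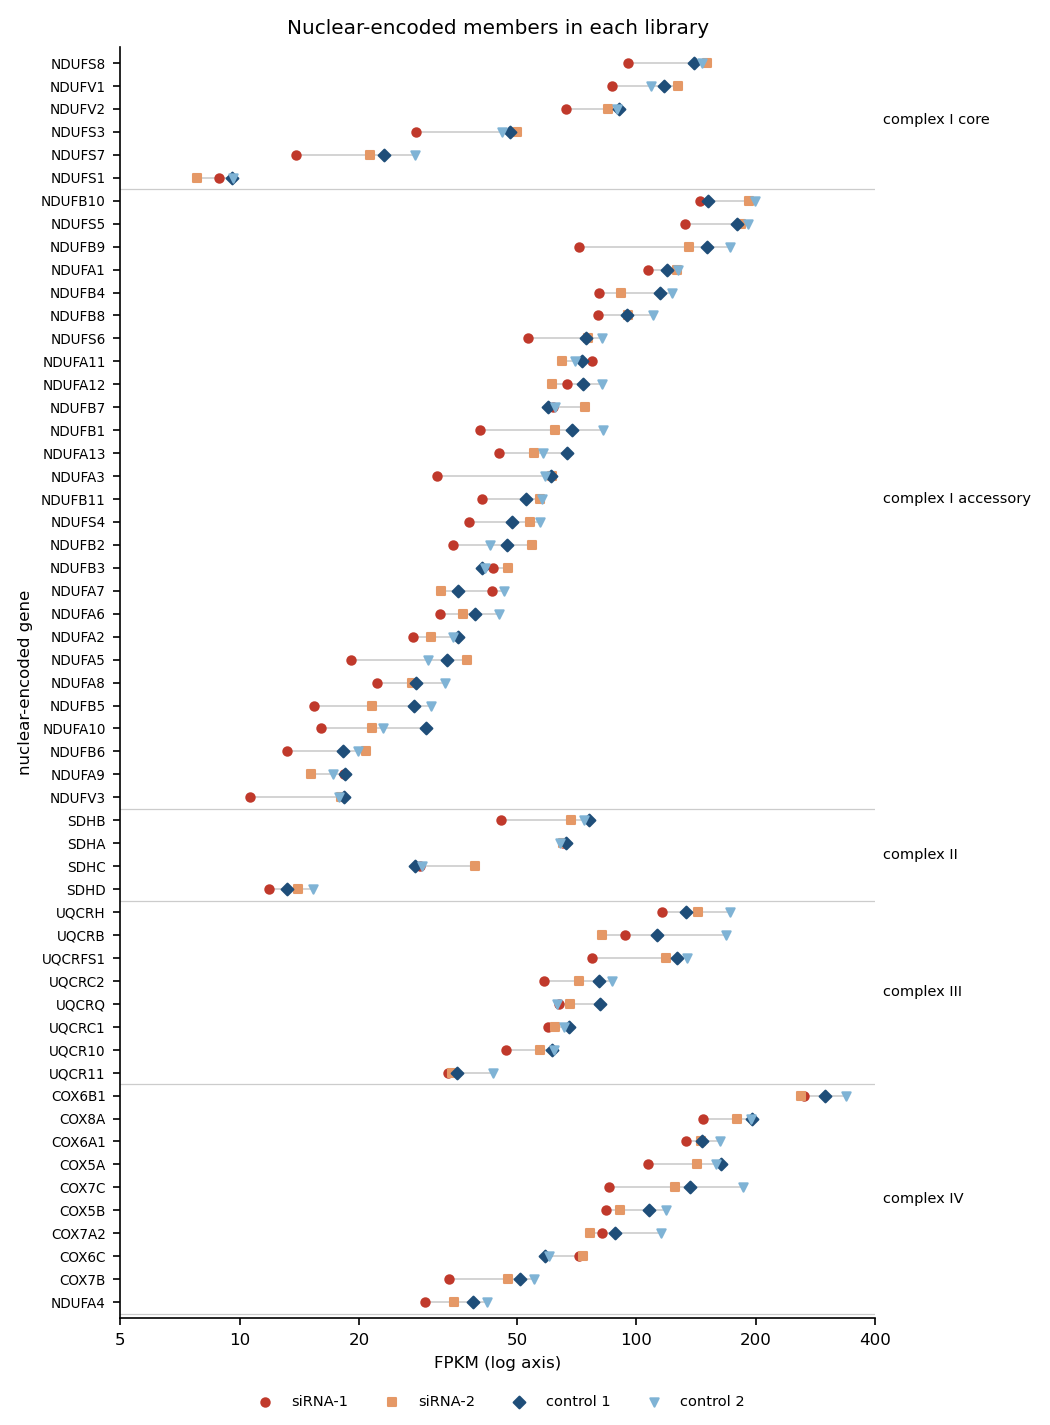
FPKM (horizontal, log axis) of 55 of the 56 tested nuclear-encoded members, grouped by complex and ordered by mean level, in the siRNA-1, siRNA-2, control 1 and control 2 libraries (1 point each), with a grey line over the range. The siRNA-1 point is left of both controls for 46 of the 55 genes drawn and the siRNA-2 point for 32.

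The mitochondrially encoded genes were far more abundant, together 13.99% of all FPKM with siRNA-1 and 11.9% with siRNA-2, against 14.2% and 14.8% in the controls. The difference of -1.54 percentage points had p = 0.33 in an exact two-sided permutation test, the smallest p that 2 libraries against 2 allow. With a library left out it was -0.476 points without siRNA-2, -2.61 without siRNA-1, -1.86 without control 1 and -1.23 without control 2. None of the 13 genes passed limma's test in either direction (0.171% and 0.064% of all genes did), and 0 had an unadjusted p below 0.05. All 13 had a negative change (12 of 13 after scaling to equal FPKM sums, where MT-CYB turned to 0.0037), from -0.42 to -0.06 with a median of -0.16. Without the siRNA-2 library the median was -0.016, with 8 of 13 negative. Without control 1 it was -0.27, with 13 of 13 negative. Both knockdown libraries lay below both controls for 4 of the 13 (30.8%, beside 21.0% of all genes): MT-CO1, MT-CO2, MT-CO3 and MT-ATP6. The authors' deposited table also had all 13 negative, with a median of -0.23 and 0 below an adjusted p of 0.05.

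The 3 complex IV genes, which encode the haem- and copper-bearing centre of cytochrome c oxidase and a further subunit beside it, had the most negative values. MT-CO2, which takes electrons from cytochrome c, was at 8602 FPKM with siRNA-1 and 7927 FPKM with siRNA-2, against 10051 and 12099 FPKM in the controls (-0.42 ± 0.19, limma adjusted p = 0.469). MT-CO1, the subunit that binds oxygen, was at 9699 and 8326 FPKM with siRNA-1 and siRNA-2, against 11065 and 11121 FPKM in the controls (-0.30 ± 0.18, limma adjusted p = 0.572). MT-CO3 was at 6318 and 5804 FPKM with siRNA-1 and siRNA-2, against 7175 and 7908 FPKM in the controls (-0.31 ± 0.17, limma adjusted p = 0.547). In each of these genes siRNA-2 was the lowest library and siRNA-1 the next.

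The ATP synthase subunits had the same order of libraries for MT-ATP6 and overlap for MT-ATP8. MT-ATP6, part of the proton channel, was at 7484 and 6952 FPKM with siRNA-1 and siRNA-2, against 7934 and 8747 FPKM in the controls (-0.21 ± 0.18, limma adjusted p = 0.692). MT-ATP8, whose reading frame overlaps that of MT-ATP6, was at 5956 and 5574 FPKM with siRNA-1 and siRNA-2, against 5923 and 6967 FPKM in the controls. MT-CYB, cytochrome b of complex III, had the change closest to 0, with 2933 and 2653 FPKM with siRNA-1 and siRNA-2, against 2808 and 3011 FPKM in the controls (-0.06 ± 0.17, limma adjusted p = 0.923).

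The 7 complex I genes, which form the proton-pumping membrane arm, overlapped between the groups in every case, because siRNA-1 lay among or above the controls. Their summed level was 28130 FPKM with siRNA-1 and 22357 FPKM with siRNA-2, against 27655 and 28269 FPKM in the controls. MT-ND2 was at 3570 FPKM with siRNA-1 and 2526 FPKM with siRNA-2, against 3659 and 3477 FPKM in the controls (-0.25 ± 0.22, limma adjusted p = 0.705). MT-ND1 was at 3413 and 2485 FPKM with siRNA-1 and siRNA-2, against 3306 and 3601 FPKM in the controls. In both genes siRNA-2 alone stood low.

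MT-ND4 was at 7801 and 6525 FPKM with siRNA-1 and siRNA-2, against 7677 and 8052 FPKM in the controls. MT-ND4L, which shares a transcript with MT-ND4, was at 6331 and 4978 FPKM with siRNA-1 and siRNA-2, against 6072 and 6169 FPKM in the controls. MT-ND5 was at 2934 and 2353 FPKM with siRNA-1 and siRNA-2, against 2937 and 2709 FPKM in the controls. The siRNA-1 value was above both controls only for MT-ND4L among these. MT-ND6, the only protein gene on the opposite strand, was at 2795 and 2260 FPKM with siRNA-1 and siRNA-2, against 2787 and 2680 FPKM in the controls, again with siRNA-1 just above both. MT-ND3 was at 1287 and 1230 FPKM with siRNA-1 and siRNA-2, against 1217 and 1581 FPKM in the controls. For MT-ND3 both knockdown libraries lay between the controls.

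**Figure D3:**
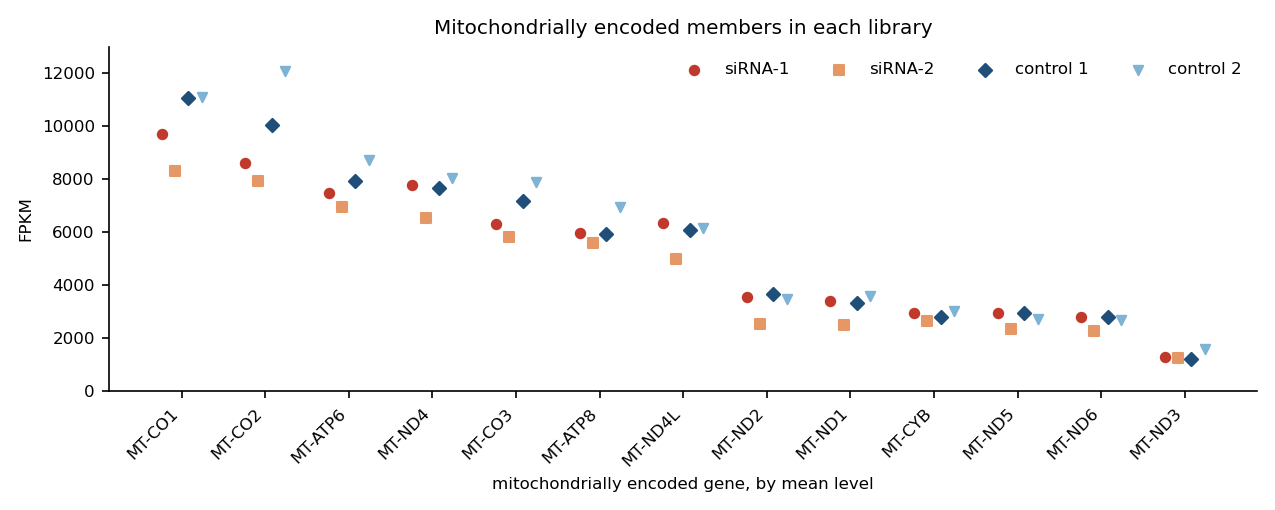
FPKM (vertical axis, from 0) of the 13 mitochondrially encoded members, ordered by mean level, in the siRNA-1, siRNA-2, control 1 and control 2 libraries (1 point each). MT-CO1, MT-CO2, MT-CO3 and MT-ATP6 are lower in both knockdown libraries than in both controls, and siRNA-2 lies below both controls for 12 of 13 genes.

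The mitochondrial ribosomal RNAs, transcribed from the same genome, were read for context. MT-RNR2 was at 7920 and 6881 FPKM with siRNA-1 and siRNA-2, against 9309 and 10345 FPKM in the controls (-0.41 ± 0.18, limma adjusted p = 0.464), and MT-RNR1 had -0.16 ± 0.16 (limma adjusted p = 0.732). Nuclear pseudogene copies make the mitochondrial levels uncertain. MTATP6P1 had 2706 to 3408 FPKM over the 4 libraries, MTND2P28 had 706 to 1024 FPKM and MTND1P23 had 724 to 1003 FPKM, while the authors' deposited table gives them mean counts of 28.2, 14.3 and 4.78. With the pseudogene copies added to the 13 genes the difference in share was -1.62 points.

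By their medians, the nuclear-encoded members were lower mainly with siRNA-1, and the mitochondrially encoded members mainly with siRNA-2. The split was not the same in every complex. Mitochondrially encoded complex I genes had medians of 0.0012 with siRNA-1 and -0.27 with siRNA-2 against the control mean. Those of complex IV were lower with both, at -0.25 and -0.41. Each siRNA has 1 library, and both were set against the same 2 controls, so the values are given side by side. Against the control mean, the median nuclear-encoded difference was -0.42 in the siRNA-1 library and -0.12 in the siRNA-2 library, and that between the controls (control 2 minus control 1) was 0.10. The median mitochondrially encoded difference was -0.02 in the siRNA-1 library and -0.27 in the siRNA-2 library, with 0.10 between the controls. All genes had medians of -0.03 for siRNA-1 and 0.04 for siRNA-2. The siRNA-1 library lay below both controls for 47 of 56 nuclear-encoded genes (44.1% of all genes did) and for 4 of 13 mitochondrially encoded genes. The siRNA-2 library lay below both controls for 33 of 56 nuclear-encoded genes (32.1% of all genes did) and for 12 of 13 mitochondrially encoded genes.

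Within a library the ratio of summed mitochondrial to summed nuclear-encoded FPKM does not depend on the scaling of that library. The siRNA-1 library had a ratio of 20.1 and the siRNA-2 library one of 13.99, against 16.4 and 16.2 in the controls. The siRNA libraries lay on opposite sides of the controls, which were close together. As log2 values the groups averaged 4.07 ± 0.37 in knockdown and 4.03 ± 0.01 in control libraries (SD, n = 2 each), a difference of 0.04 (exact two-sided permutation p = 1). Without the siRNA-1 library that difference was -0.22, and without control 1 it was 0.05. The nuclear-encoded share of all FPKM was 0.698% in the siRNA-1 library and 0.847% in the siRNA-2 library, against 0.862% and 0.912% in the controls, a difference of -0.114 percentage points (exact two-sided permutation p = 0.33). It was -0.0393 points without siRNA-1, -0.189 without siRNA-2, -0.139 without control 1 and -0.0894 without control 2.

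**Figure D4:**
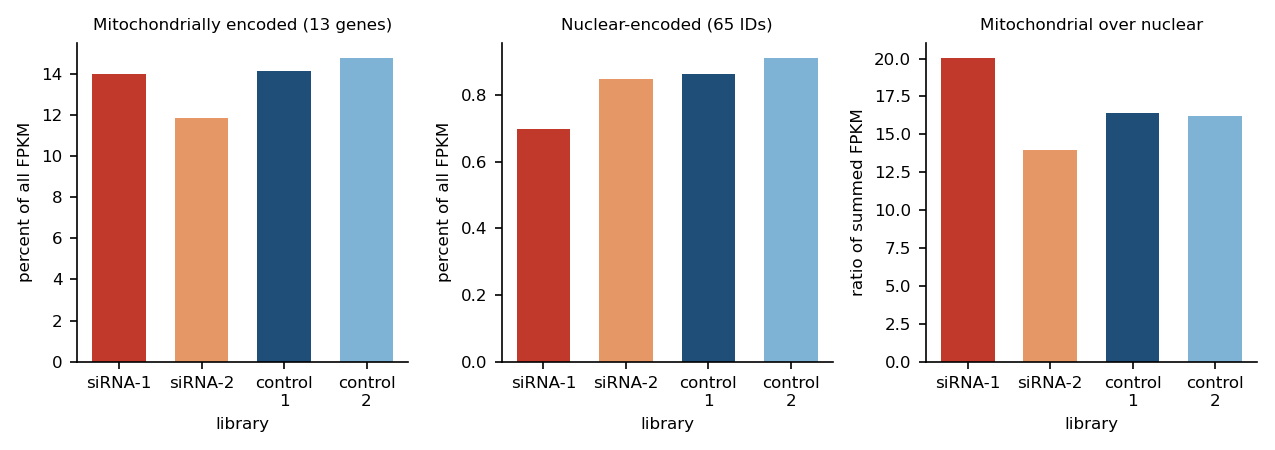
Share of all FPKM held by the 13 mitochondrially encoded members (left) and the 65 nuclear-encoded IDs (middle), in percent, and the ratio of the summed FPKM of the 2 sets (right), in the siRNA-1, siRNA-2, control 1 and control 2 libraries (1 bar each, no error). The mitochondrial share is lowest with siRNA-2 at 11.9%, the nuclear-encoded share is lowest with siRNA-1 at 0.698%, and the ratio is highest with siRNA-1 at 20.1 and lowest with siRNA-2 at 13.99.

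A direct contrast of siRNA-1 minus siRNA-2 was fitted with the spread taken from the controls, assuming that each siRNA library varies as they do. Its median was -0.29 for the nuclear-encoded members, with 47 of 56 lower with siRNA-1, beside 56.2% of all genes and a median of -0.06. For the mitochondrially encoded members it was 0.22, with all 13 higher with siRNA-1. At an adjusted p below 0.05 there were 0 calls in either set, beside 0.327% of all genes lower and 0.114% higher with siRNA-1. At an unadjusted p below 0.05, 22 nuclear-encoded members were lower and 0 higher with siRNA-1, beside 13.4% and 9.02% of all genes, and 1 mitochondrially encoded gene, MT-ND2, was higher. The count of 22 was 13 with median-of-ratios scaling and 13 without the intensity trend.

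NDUFA3, an accessory subunit of complex I, had the smallest adjusted p among the members in this contrast. It was at 31.4 FPKM with siRNA-1 and 61.2 FPKM with siRNA-2, and at 60.9 and 58.8 FPKM in the controls (siRNA-1 minus siRNA-2, -0.94 ± 0.15, limma adjusted p = 0.0694). NDUFA5, whose promoter stretch is shown above, was at 19.1 FPKM with siRNA-1 and 37.5 FPKM with siRNA-2, and at 33.4 and 29.8 FPKM in the controls (-0.94 ± 0.17, limma adjusted p = 0.079). In both genes siRNA-1 alone stood low. MT-ND2 had 0.50 ± 0.19 (limma adjusted p = 0.218).

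The calls of this contrast depended on the filter. A higher filter took out no tested nuclear-encoded member, since all averaged at least 8.97 FPKM. It changed the fit through the other genes. The prior degrees of freedom, the weight given to the spread over all genes, went from 3.92 to 10.9. Of the 56 members tested, 34 were of complex I. With a minimum mean of 5 FPKM, 11 nuclear-encoded members passed, all lower with siRNA-1 and 9 of them in complex I, beside 8.55% of all genes then called lower. They included NDUFA3, NDUFA5, NDUFB1, NDUFB2, NDUFB9, NDUFS3, NDUFS8, NDUFV3, SDHB and UQCRFS1. The siRNA-1 library alone against the controls gave 14 nuclear-encoded members called lower of 56 and 0 called higher, beside 6.71% and 6.53% of all genes, and 0 mitochondrially encoded members. The siRNA-2 library alone gave 0 in either set, beside 0.506% of all genes called lower and 0.492% called higher. Each of these fits assumes that a lone library varies like the controls.

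**Figure D5:**
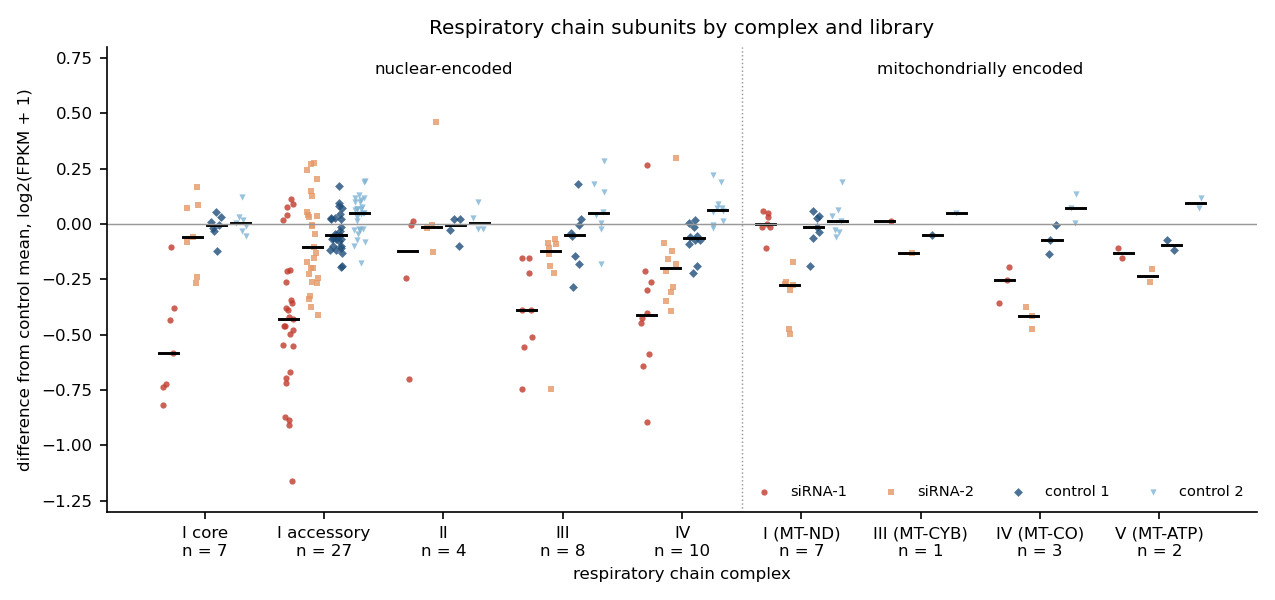
Difference of each tested member from the control mean on the log2(FPKM + 1) scale (vertical axis), by complex and genome, for the siRNA-1, siRNA-2, control 1 and control 2 libraries; a point is 1 gene in 1 library and a black bar is the median. The siRNA-1 medians are lowest for nuclear-encoded complex I core genes (-0.58) and near 0 for mitochondrially encoded complex I genes (0.00), where siRNA-2 is at -0.06 and -0.27.

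Within complex I the genomes are set side by side as a description. The median siRNA-1 minus siRNA-2 difference was -0.58 over the 7 nuclear-encoded core genes and -0.40 over the 27 accessory genes, and 0.32 over the 7 mitochondrially encoded genes. In complex IV it was -0.18 over the 10 nuclear-encoded and 0.12 over the 3 mitochondrially encoded genes.

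Genes that work beside the chain were read from lists written with earlier results of these data known. For every list below, the shares to compare are those of all genes tested. Of these, 49.9% had a negative change, 0.171% were called lower and 0.064% were called higher. Of 18 nuclear-encoded ATP synthase subunits tested, 16 had a negative change and 0 passed the test, with a median of -0.29. Side by side their medians were -0.45 with siRNA-1 and -0.10 with siRNA-2. ATP5C1, the rotor subunit gamma, was at 98.6 and 129 FPKM with siRNA-1 and siRNA-2, against 206 and 227 FPKM in the controls (-0.93 ± 0.19, limma adjusted p = 0.159), lower in both knockdown libraries than in both controls. Of 39 assembly factors tested, 32 had a negative change and 0 passed, with a median of -0.25. COX20, which helps assemble MT-CO2 into complex IV, was at 5.86 and 6.70 FPKM with siRNA-1 and siRNA-2, against 13.5 and 10.3 FPKM in the controls (-0.82 ± 0.21, limma adjusted p = 0.237). For COX20 the log2 fold change in the authors' deposited table was smaller, at -0.25, with a mean count of 14.4.

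Of 7 tested chain subunits outside the symbol pattern, 5 had a negative change and 0 passed. NDUFAB1, the mitochondrial acyl carrier protein, had the smallest p, with 46.9 and 67.3 FPKM with siRNA-1 and siRNA-2, against 71.9 and 83.2 FPKM in the controls (-0.45 ± 0.22, limma adjusted p = 0.495). NDUFC2 passed the contrast of the siRNAs (1.72 ± 0.16, limma adjusted p = 0.0463), with 135 FPKM with siRNA-1 and 40.4 FPKM with siRNA-2, and 133 and 152 FPKM in the controls. The authors' deposited table gives NDUFC2 a mean count of 101.2, few for that level, so its FPKM is uncertain.

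Of 26 gene IDs (25 symbols) of mitochondrial transcription, RNA processing and DNA replication, 20 had a negative change and 0 passed (median -0.13). KIAA0391 is counted under both of its IDs, at -0.47 and 0.47. TFAM, which packages and activates the mitochondrial genome, was at 14.7 and 19.9 FPKM with siRNA-1 and siRNA-2, against 22.1 and 20.6 FPKM in the controls, and POLRMT, its RNA polymerase, was at 29.4 and 37.6 FPKM, against 40.7 and 33.8 FPKM in the controls. MTERF, a transcription termination factor, had the smallest p of this list (-0.54 ± 0.21, limma adjusted p = 0.39).

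Among 12 tested transcription factors and coactivators of respiratory genes, 7 had a negative change and 0 passed limma's test. PPARGC1A, the coactivator PGC-1alpha, was at 0.641 FPKM with siRNA-1 and 2.97 FPKM with siRNA-2, against 5.38 and 7.17 FPKM in the controls (-1.5 ± 0.44, limma adjusted p = 0.277). Both knockdown libraries were below both controls. In the authors' deposited table PPARGC1A fell by 1.76 on the log2 scale (adjusted p = 0.0182). NRF1 itself was at 8.60 and 8.59 FPKM with siRNA-1 and siRNA-2, against 8.49 and 6.34 FPKM in the controls (0.20 ± 0.21, limma adjusted p = 0.757). YY1 was at 31.9 and 21.7 FPKM with siRNA-1 and siRNA-2, against 20.9 and 20.4 FPKM in the controls (0.34 ± 0.22, limma adjusted p = 0.61). Changes of the GABP genes were -0.08 for GABPA, 0.36 for GABPB1 and -0.62 for GABPB2.

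Of 24 genes of pyruvate entry and the citric acid cycle, which feed the chain with electrons, 20 had a negative change and 0 passed limma's test (median -0.19). MPC2, a subunit of the mitochondrial pyruvate carrier, was at 11.8 and 21.5 FPKM with siRNA-1 and siRNA-2, against 34.3 and 41.4 FPKM in the controls (-1.19 ± 0.30, limma adjusted p = 0.224). In the authors' deposited table MPC2 fell by 1.20 on the log2 scale (adjusted p = 0.00868). PDK4, a kinase that holds back pyruvate dehydrogenase, was at 3.87 and 15.3 FPKM with siRNA-1 and siRNA-2, against 44.6 and 45.2 FPKM in the controls (-2.37 ± 0.54, limma adjusted p = 0.191), and it passed the contrast of siRNA-1 minus siRNA-2 (-1.74 ± 0.17, limma adjusted p = 0.0467). Of 10 tested genes of matrix defence and uncoupling, 7 had a negative change and 0 passed (median -0.19). SLC25A6, an ADP/ATP carrier, was at 88.3 and 208 FPKM with siRNA-1 and siRNA-2, against 224 and 232 FPKM in the controls (-0.75 ± 0.39, limma adjusted p = 0.53).

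Precision is limited by 2 libraries a group. The 95% interval of the change included 0 for 53 of 56 nuclear-encoded and for 13 of 13 mitochondrially encoded members. For 7 tested members (NDUFA7, NDUFA11, NDUFA13, NDUFB8, NDUFV2, COX6A1 and MT-ATP8) the authors' deposited table holds under 1 mean count per FPKM, where the nuclear-encoded median was 6.97, so their FPKM values are uncertain. Several subunit genes have processed pseudogene copies, and how shared reads were assigned is not given in the sources used here.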

How the data were processed

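Total RNA of 4 A549 libraries was read as 76-base single-end reads from strand-specific libraries, per the labels' protocols. The submitters' processing notes name DESeq2 1.26.0, HTSeq 0.13.5, StringTie 2.1.4, STAR 2.7.0d and build hg19, without saying what each was used for. The deposited table holds per-library values whose unit the file headers do not name. They were taken as FPKM, made by the authors, because their sums differ between libraries. The authors' deposited mean signal (mean normalized count), log2 fold change with its standard error, score (Wald statistic), p-value and adjusted p-value were quoted as theirs. The authors' mean counts sum to 8341083, and relative depth per library was read from the steps of low FPKM values. All 4 sample columns were mapped to labels.

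Log2(FPKM + 1) was tested in R 4.3.3 by limma 3.58.1 (intensity trend) for the 14068 genes averaging 1 FPKM or more. P-values were adjusted by Benjamini-Hochberg at 0.05, without a block. The test was checked on simulated data. These gave the siRNA libraries no difference from each other and held changes larger than any member's, so the check does not cover the setting here. The 2 siRNAs formed 1 group, whose spread includes the difference between them. The siRNAs were compared in a 3-group fit. Single values per library were compared with an exact two-sided permutation test (scipy 1.17.1), whose smallest p is 0.33. Alternatives covered the pseudocount, filter, scaling, trend, block, 3-group fit and each library left out. Log2 changes understate those of low genes.

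The members and lists were chosen with earlier results of these data known, and adjusted p-values are over all genes tested. The genes named were CEBPB, all mitochondrially encoded members and ribosomal RNAs, members past the threshold, and in each complex the highest and lowest change and smallest p. The tissue-restricted isoforms, NDUFA4, and from each list the genes past the threshold, or else the one with the smallest p, were also named. Other members, NRF1, YY1, the GABP genes, KIAA0391, TFAM, POLRMT, KRT8 and CD68 were chosen after their values were seen. Values of 1 nuclear-encoded member are not reported here, though it is counted in every total.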

Additional observations from a re-analysis of the deposited data

Results flagged for a closer look

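For 10 members the siRNA-1 and siRNA-2 libraries lay on opposite sides of both controls, with 1 library each. Values are siRNA-1 minus siRNA-2 on the log2(FPKM + 1) scale, and none passed limma's test of that difference (adjusted p from 0.0694 to 0.39). With a minimum mean of 5 FPKM, NDUFA3, NDUFA5, NDUFB2, NDUFS3 and NDUFS8 passed. Over all genes tested, 13.1% had siRNA-1 below and siRNA-2 above both controls, and 7.18% the reverse.

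Lower with siRNA-1 were 7 of the 56 nuclear-encoded genes tested, a share near the 13.1% of all genes. All 7 were of complex I, as were 34 of the 56 tested. The core subunits NDUFS3, NDUFS8 and NDUFV1 had -0.82, -0.66 and -0.55. The accessory subunits NDUFA3 and NDUFA5 each had -0.94, NDUFB2 had -0.65 and NDUFB6 had -0.62. Higher with siRNA-1 were the mitochondrially encoded complex I genes MT-ND4L (0.35) and MT-ND6 (0.31) and the nuclear-encoded NDUFA11 (0.24), whose FPKM is uncertain.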

How the results depend on the processing

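The 13 mitochondrially encoded members had 0 calls under all alternatives run. The nuclear-encoded count of 0 became 1 in the 3-group fit and was 0 to 14 with a library left out (14 without the siRNA-2 library). All genes gave 33 calls, 0 with no filter on low values (2438 at an unadjusted p below 0.05, and CEBPB's adjusted p was 0.262), 971 in the 3-group fit and 0 to 1855 with a library left out. Between the siRNAs, the nuclear-encoded count of 0 became 11 with a minimum mean of 5 FPKM and 1 with no filter, the second NDUFB8 ID. That contrast was not run without a control, since no residual degree of freedom remains.

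With a library left out, the nuclear-encoded median was -0.42 to -0.12 and the mitochondrially encoded one -0.27 to -0.016, the values nearest 0 coming without the siRNA-1 and without the siRNA-2 library. The log2 ratio of 0.04 was -0.22 to 0.30 (-0.222 without siRNA-1). With a library left out, changes ranged over 0: MT-ND2 -0.5 to 0.0012, MT-ND4L -0.3 to 0.049, MT-ND5 -0.26 to 0.057, MT-ND6 -0.27 to 0.033 and MT-CYB -0.13 to 0.013 (all positive without siRNA-2), MT-ND3 -0.33 to 0.049 (positive without control 2), NDUFV1 -0.38 to 0.17 (positive without siRNA-1) and UQCRQ -0.29 to 0.068 (positive without control 1). The change also turned positive under TPM scaling for MT-CYB (0.0037). The cause was not tested. TPM scaling gave medians of -0.20 (nuclear-encoded, 48 of 56 negative), -0.09 (mitochondrially encoded, 12 of 13 negative) and 0.06 (all genes).

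With the replicate number as a block, 0 nuclear-encoded and 0 mitochondrially encoded members and 25 genes in all were called, and CEBPB had an adjusted p of 0.0344. The labels tie same-numbered libraries by no more than that number. The correlation of their deviations was 0.0754. For the knockdown libraries these deviations include the difference between the siRNAs, so the value cannot tell whether libraries were paired. Adding pseudogene copies, and a total without the mitochondrial genome (nuclear-encoded share -0.168 points), were chosen after seeing the data and kept each direction. Only relative depth per library was used, so counting error is not given.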
